A study of Mus musculus with 42 samples.

Results

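Replication-dependent histone genes were examined in the ribosome footprints and the mRNA of mouse acute myeloid leukaemia cells. They were taken as the genes with names of the Hist1 to Hist4 clusters, or the newer names of those genes, and 68 of the 55487 gene identifiers in the count tables fitted after 2 pseudogene rows were left out. RefSeq lists 66 of the 68 as protein-coding, 1 (Hist1h2ap) could not be matched to 1 gene, and Hist1h2al, listed as a transcribed pseudogene, was kept under its name. The 68 genes comprised 6 for the linker histone H1, 19 for H2A, 18 for H2B, 12 for H3 and 13 for H4. By name 55 belonged to the Hist1 cluster on chromosome 13, 10 to Hist2 on chromosome 3, 2 to Hist3 on chromosome 11 and 1 to Hist4 on chromosome 6.

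The cells were viable GFP+ MLL-AF9 leukaemia cells, wild type by their label, that carry GFP and luciferase, were grown from 1 terminally ill mouse and were sorted from the bone marrow of 21 recipients. The recipients were male, 8 to 10 weeks old at injection and not preconditioned, so they kept their own marrow. Chemotherapy, named 5+3, was cytarabine at 100 mg/kg a day for 5 days with doxorubicin at 3 mg/kg a day on the first 3 days, and vehicle was PBS. The groups were a diet free of branched-chain amino acids (BCAA-free) with 5+3 (7 mice), BCAA-free with vehicle (5 mice), a standard amino acid (AA) diet with 5+3 (4 mice) and AA with vehicle (5 mice). Each mouse gave 1 footprint library, which holds the mRNA stretches covered by ribosomes, and 1 Smart-seq2 mRNA library made from 2 µl of the same lysate. Names of the AA vehicle mice end in B, which the labels do not explain, so whatever that letter marks cannot be told apart from the group.

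Replication-dependent histones package newly made DNA, and cells make them in bulk during S phase. Their genes have no introns, lie in clusters and exist in many copies that encode the same or nearly the same protein. Their mRNAs end in a stem-loop bound by the protein SLBP in place of a poly(A) tail, and Smart-seq2 primes from poly(A) tails. Replication-independent histones such as H3f3a and H2afz come from single genes with polyadenylated mRNA. Cytarabine is a nucleoside analogue that stops DNA synthesis, and histone mRNA is known to be broken down when DNA synthesis stops.

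Promoters, as the 150 bases before the annotated start on GRCm38.p6 from RefSeq, are printed for 6 genes to show how the classes differ in motifs upstream. The genes are Hist3h2a and Hist2h2bb, which passed a test in mRNA, and Hist1h1b, Hist1h2ae, Hist1h3b and Hist1h4i, abundant Hist1 genes in footprints or mRNA. Capitals mark CCAAT, the TATA box letters TATAAA, the octamer ATTTGCAT, the H1 box AAACACA and the H4 element GGTCCG, each on either strand and at any position. TATAAA starts at -28 and -29 from the start in Hist1h1b and Hist1h3b, but at -142 and -137 in Hist1h2ae and Hist1h4i.
Hist3h2a (H2A, chr11:58954535-58954684, plus strand): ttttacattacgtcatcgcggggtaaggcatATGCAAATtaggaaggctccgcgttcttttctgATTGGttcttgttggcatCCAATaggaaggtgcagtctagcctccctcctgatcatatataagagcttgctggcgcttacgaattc
Hist2h2bb (H2B, chr3:96269550-96269699, plus strand): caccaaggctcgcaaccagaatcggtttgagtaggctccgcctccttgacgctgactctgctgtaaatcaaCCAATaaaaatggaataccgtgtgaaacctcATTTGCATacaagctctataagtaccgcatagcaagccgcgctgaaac
Hist1h1b (H1, chr13:21780626-21780775, minus strand): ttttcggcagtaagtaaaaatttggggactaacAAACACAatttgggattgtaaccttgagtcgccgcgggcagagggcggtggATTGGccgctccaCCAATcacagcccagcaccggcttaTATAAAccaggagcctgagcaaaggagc
Hist1h2ae (H2A, chr13:23571221-23571370, minus strand): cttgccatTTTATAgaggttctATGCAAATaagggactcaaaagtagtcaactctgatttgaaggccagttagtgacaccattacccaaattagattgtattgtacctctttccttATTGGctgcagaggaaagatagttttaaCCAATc
Hist1h3b (H3, chr13:23752195-23752344, plus strand): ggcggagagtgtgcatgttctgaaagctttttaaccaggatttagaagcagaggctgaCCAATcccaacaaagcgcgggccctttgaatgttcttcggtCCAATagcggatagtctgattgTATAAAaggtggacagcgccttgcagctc
Hist1h4i (H4, chr13:22041363-22041512, minus strand): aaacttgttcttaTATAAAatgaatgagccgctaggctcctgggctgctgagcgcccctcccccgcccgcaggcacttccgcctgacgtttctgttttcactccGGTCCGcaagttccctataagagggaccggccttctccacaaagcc

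Over the 250 bases before the start, 61 of the 68 genes had a sequence in the promoter table, and 27025 genes of the table served as the background. CCAAT was found in 82.0% of the histone promoters, against 37.5% of all promoters, and in all 6 H1, all 17 H2A and all 16 H2B promoters, but in 3 of 12 H4 promoters. The octamer was found in 7 of 17 H2A and 7 of 16 H2B promoters and in no promoter of the other classes, against 1.81% of all promoters. Its 14 matches lie at 11 positions, because H2A and H2B genes often sit back to back and share the bases between them. There were 9 such H2A and H2B pairs, with starts 164 to 281 bases apart, Hist1h2ae and Hist1h2bg among them. The H1 box was found in 5 of 6 H1 promoters, against 7.20% of all promoters. GGTCCG was found in 9 of 12 H4 promoters, against 7.69% of all promoters, and TATAAA in 47.5% of the histone promoters, against 14.3%. Matches were counted at any position, and the 35 of TATAAA lie at 32 positions. A match describes these letters and shows no binding.

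Histone genes took a large share of the footprint counts and almost none of the mRNA counts. They held 6.39% to 17.5% of the footprint counts of a library (median 12.0%, 21 libraries), and 0.00990% to 0.0482% of the mRNA counts (median 0.0242%). A footprint read that fits several copies may be counted once for each, so this share may hold the same read more than once. Total counts were 2697092 to 8863472 in footprints and 30996200 to 70437713 in mRNA. Fewer cells in S phase and less histone mRNA in each cell cannot be told apart in such bulk samples. Markers of the labelled cells were present: the 7 genes of the MLL-AF9 list, which includes Hoxa9, Meis1, Mpo and Kit, were detected in every group and kind of library. Markers of B cells, T and NK cells and stroma were low, with summed footprints of at most 30.4 CPM in any mouse.

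Ratios of footprints to mRNA were set per gene, as log2 of mean footprint CPM (counts scaled to library size) over mean mRNA CPM of the 21 mice. The 60 histone genes measured in both kinds had a median log2 ratio of 10.3, with a range of 3.81 to 13.7, while all 12097 genes measured in both had a median of -0.89 and a middle 95% of -4.04 to 8.82. H1 genes had the lowest class median at 6.24, H4 and H2A had 9.90 and 9.91, H2B had 10.5, and H3 had the highest at 11.6. The 11 genes listed as replication-independent histones ran from -4.70 for H2afv to 2.05 for H2afx, with a median of -1.70. H2afx encodes H2A.X, whose phosphorylated form marks DNA breaks. Whether all H2afx mRNA in these cells carries a poly(A) tail was not tested. Summed over the histone genes, footprint CPM was 223 to 1159 times mRNA CPM in single mice (median 500.1). Such a ratio sets 2 library preparations side by side and is not a measure of translation per mRNA, since mRNAs without a poly(A) tail are poorly captured. Footprint reads that fit several copies may also enter these ratios more than once.

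Copies of a class differed less in footprint counts than in mRNA counts by their quartiles, as far as 1 count can be assigned to 1 copy. Among the 49 Hist1 genes for H2A, H2B, H3 and H4, the mean footprint count per library had quartiles of 10147 and 12332, a ratio of 1.22, while the quartile ratio of mRNA counts was 6.54. Within classes, H4 had quartile ratios of 1.08 in footprints and 16.3 in mRNA, H2B of 1.31 and 8.79, H2A of 1.57 and 6.19, and H1 of 2.20 and 9.49. H3 was close in both, at 1.18 in footprints and 1.81 in mRNA. The quartiles leave out the ends: H4 copies ran from 871 to 11134 footprint counts, a 12.8-fold range. Hist1h4d had a mean of 9310 footprint and 562 mRNA counts, and Hist1h4k had 11134 footprint and 8.33 mRNA counts. Counts are not divided by gene length here.

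Some copies could not be separated at all. Hist2h2aa1 and Hist2h2aa2, which encode the same H2A, had the same footprint count in 8 of 21 libraries and differed by at most 3 counts, with means of 8510.2 and 8509.7. Hist2h3c1 and Hist2h3c2 were equal in 8 of 21 libraries and differed by at most 4 counts. Hist1h2bq and Hist1h2br were equal in 4 of 21 and differed by at most 13 counts. How reads that fit several copies were counted is not given in the sources used here, so the copies' footprint values are not independent measurements.

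Genes known as testis histones also drew footprint counts. Hist1h2ba, the testis H2B, had a mean of 6779 footprint counts against 0.619 mRNA counts per library, and Hist1h2aa, the testis H2A, had 1272 footprint against 2.05 mRNA counts. Hist1h1t, the testis H1, had 7.81 footprint and 0.190 mRNA counts and passed neither filter on low counts. Whether the footprints counted for Hist1h2ba and Hist1h2aa came from those genes or from other copies was not tested.

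**Figure D1:**
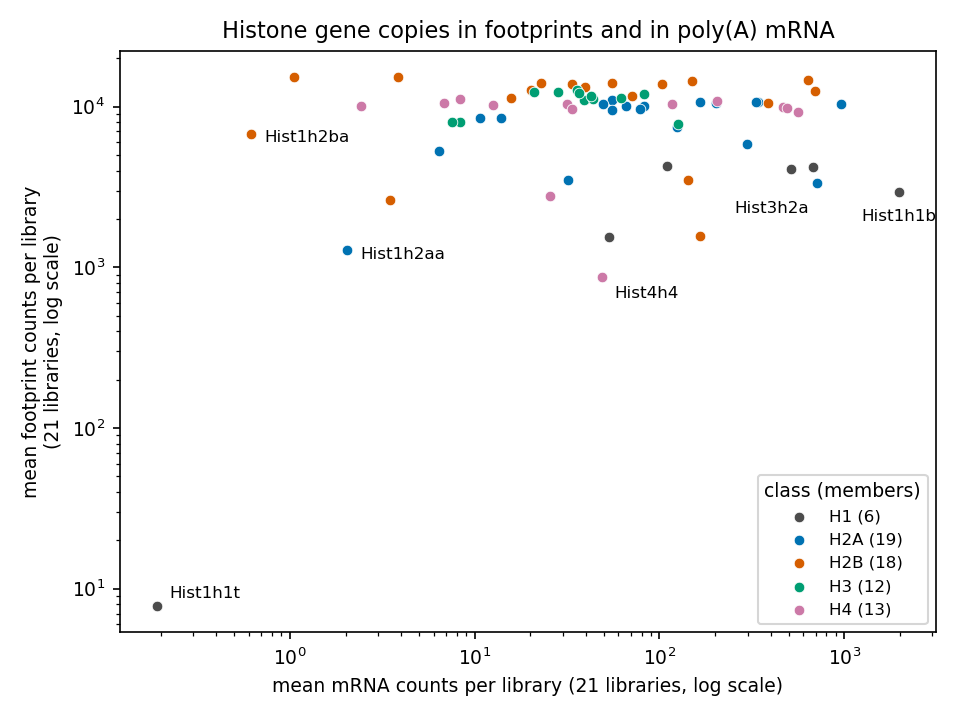
Mean footprint count against mean mRNA count per library (21 libraries each, log scales) for the 68 histone genes, coloured by class. Many core histone copies lie in a flat band, with quartiles of 10147 and 12332 footprint counts in Hist1, over the full width of mRNA counts, with Hist1h1t far below at 7.81 footprint counts.

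Across mice, copies varied together more closely in footprints than in mRNA. The median Pearson r between genes of a class over the 21 mice was 0.994 in footprints and 0.386 in mRNA, and between genes of different classes it was 0.960 and 0.351 (log2 of CPM plus 0.1). Genes of a class share reads and all genes share libraries, so these values are a description only. Within groups the median coefficient of variation of a histone gene was 14.7% to 25.7% in footprints and 45.2% to 82.0% in mRNA.

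In mRNA a few genes made up most of the histone counts. Hist1h1b, the gene for linker histone H1.5, held 16.5% of them, and the 10 most abundant genes held 64.0%, while the 10 most abundant in footprints held 22.7% of the footprint counts. Hist1h1b had a mean of 1976.0 mRNA counts per library, Hist1h2ae 957, Hist3h2a 714, Hist1h2bj 692, Hist1h1c 679 and Hist1h4d 562. The other classes' highest gene by mRNA was Hist2h3b for H3, with 126 counts.

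The summed footprint share of histone genes was lowest in the AA vehicle group. The 7 BCAA-free 5+3 mice had 10.2% to 16.0% of footprint counts in histone genes (median 12.2%), and the 5 BCAA-free vehicle mice had 17.5%, 11.9%, 11.0%, 15.6% and 12.4%. The 4 AA 5+3 mice had 14.4%, 13.0%, 11.1% and 10.6%, and the 5 AA vehicle mice had 10.3%, 12.3%, 6.39%, 9.27% and 9.99%. The groups overlapped, and AA vehicle replicate 3 was the lowest of all 21 mice.

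Each class also had its lowest mean in the AA vehicle group, as CPM summed over the genes of the class (mean ± SD, scaled by TMM, a normalization for library composition). For H1 the sums were 3655 ± 685 in BCAA-free 5+3 mice (n = 7), 3645 ± 954 in BCAA-free vehicle mice (n = 5), 3413 ± 388 in AA 5+3 mice (n = 4) and 2621 ± 608 in AA vehicle mice (n = 5). For H2A they were 32214 ± 7118, 34873 ± 8243, 33095 ± 4594 and 23322 ± 6414 in the same groups. H2B had 41381 ± 8237, 45318 ± 10832, 40748 ± 5839 and 30957 ± 7933. H3 had 27186 ± 4882, 28905 ± 7564, 26467 ± 3976 and 20291 ± 5637, and H4 had 23243 ± 2920, 25767 ± 5539, 23124 ± 3692 and 19589 ± 4174. The ranges of all 4 groups overlapped in each class. In mRNA the sums over all histone genes were 244 ± 110 CPM in BCAA-free 5+3 mice, 302 ± 89.1 CPM in BCAA-free vehicle mice, 219 ± 45.1 CPM in AA 5+3 mice and 228 ± 155 CPM in AA vehicle mice, and these ranges overlapped too.

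**Figure D2:**
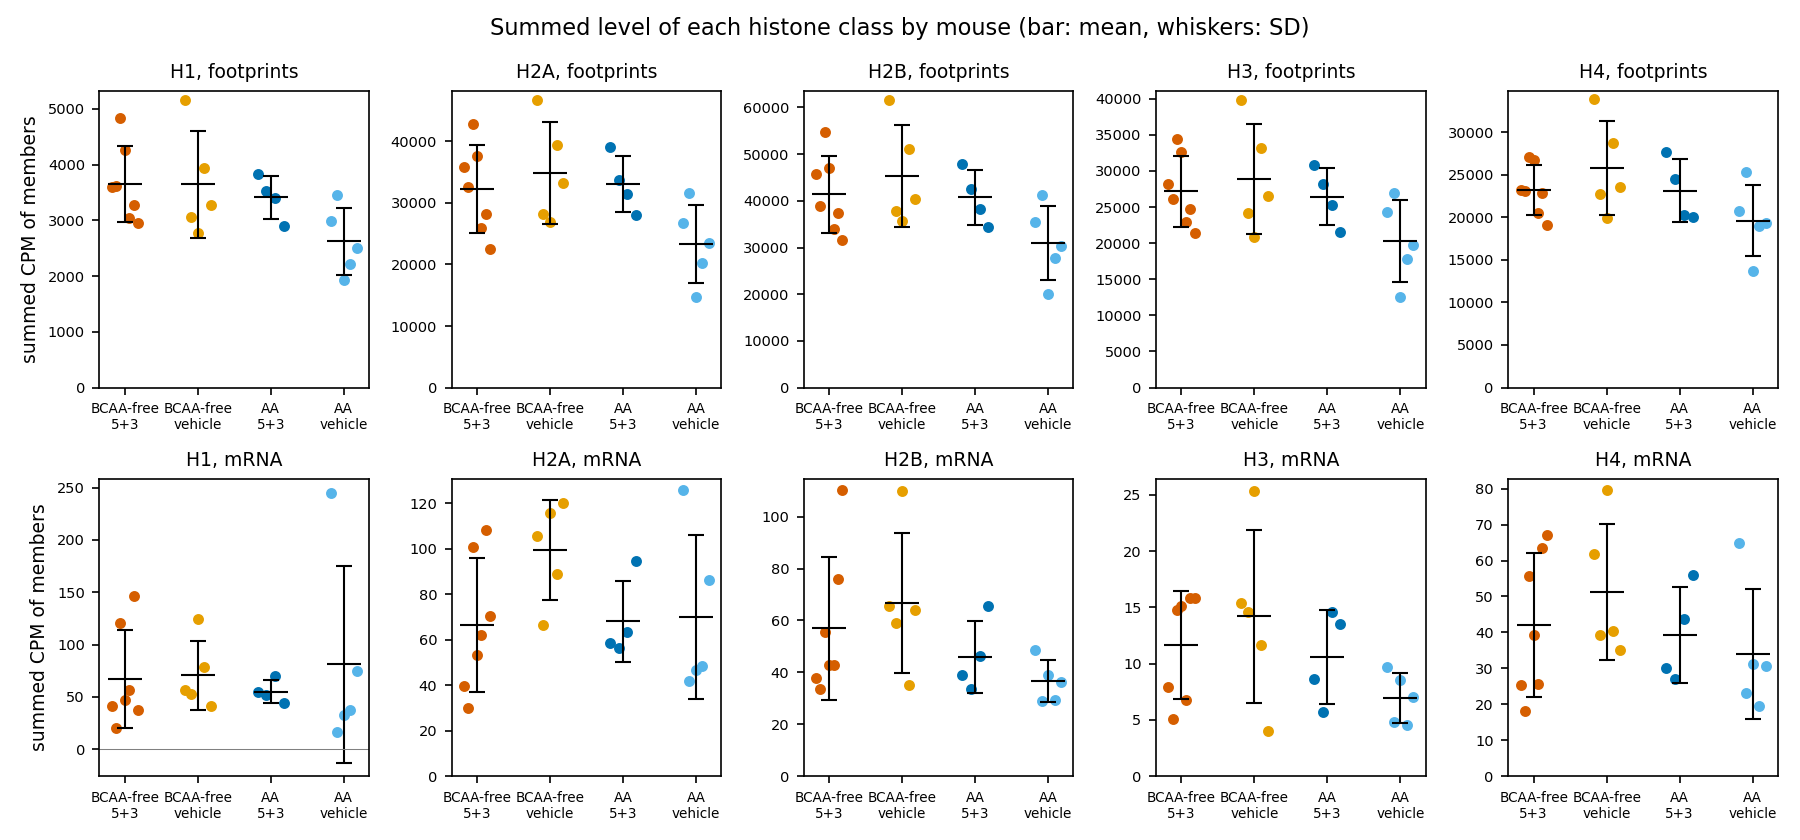
Summed CPM of the genes of each class, 1 point per mouse, in footprints (top row) and mRNA (bottom row), with the group mean as a bar and the SD as whiskers, for BCAA-free 5+3 (7 mice), BCAA-free vehicle (5), AA 5+3 (4) and AA vehicle (5). Footprint means are lowest in the AA vehicle group in all 5 classes, and AA vehicle replicate 1 stands high in H1 mRNA at 245.2 CPM.

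After 5+3 on the AA diet, histone footprints were higher in all 67 genes tested, but none passed the test. The median log2 change was 0.39, against -0.019 for all 15723 genes tested. The ranges of AA 5+3 and AA vehicle mice overlapped for each histone gene, while they did not overlap for 10.3% of all genes. With edgeR's quasi-likelihood test 0 of 67 passed an adjusted p of 0.05, against 6.61% of all genes in either direction. Without adjustment 33 of 67 had p below 0.05, against 22% of all genes, or 32 of 66 without Hist1h2al. Histone copies share reads, so footprint counts of histone genes, here and below, are not counts of separate measurements. DESeq2 passed 1 and limma-voom none. The nearest to the threshold was Hist1h1b, at 628 ± 94.4 CPM in AA 5+3 mice and 419 ± 118 CPM in AA vehicle mice, a log2 change of 0.59 ± 0.20 (SE, adjusted p = 0.0859). Class medians ran from 0.24 for H4 to 0.52 for H2A.

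The count of passing genes after 5+3 on the AA diet moved with the filter and with AA vehicle mice. The share of all genes past the threshold was not taken for this or any other refit, so such counts have no background beside them. With all mice and no filter on low counts 17 genes passed. Without AA vehicle replicates 1 and 2, the 2 shallowest footprint libraries, 46 genes passed, all higher, with a median log2 change of 0.65. Those 2 mice had the highest histone shares of their group, at 10.3% and 12.3%. Without AA vehicle replicate 2 alone 2 genes passed, Hist1h1b and Hist1h2ae, and without the lowest mouse, AA vehicle replicate 3, none passed and the median was 0.27. Monocyte and macrophage markers also differed between these groups: their 9 genes summed to 287 to 521 CPM in AA 5+3 footprints and to 718 to 924 CPM in AA vehicle footprints, 5 of the 9 were lower, and their part in the result was not tested.

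After 5+3 on the BCAA-free diet, the level of histone footprints was close to that under vehicle. The median log2 change was -0.12, against -0.022 for all genes, 6 of 67 genes lay above 0, and the groups overlapped for each histone gene, while 8.06% of all genes had groups without overlap. The median was 0.053 without BCAA-free vehicle replicates 1, 2 and 5 and BCAA-free 5+3 replicate 7, 4 mice whose mRNA libraries stand apart by earlier results. None of the 67 passed with edgeR, against 20.6% of all genes, 1 had an unadjusted p below 0.05, against 34.2% of all genes, and DESeq2 and limma-voom passed none. That gene was Hist1h1a, for H1.1, with a log2 change of -0.28 (adjusted p = 0.115). Without BCAA-free 5+3 replicate 3 it passed, with a log2 change of -0.33 (adjusted p = 0.0497). Markers of other cells moved in these footprints: all 5 tested red cell genes, 7 of 8 neutrophil genes and 5 of 9 monocyte and macrophage genes were lower after 5+3, and their part in the histone values was not tested.

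Between the diets under vehicle, histone footprints were higher on the BCAA-free diet in all 67 genes, again with none past the threshold. The median log2 difference was 0.53, against 0.0037 for all genes, and 65 of 67 genes had an unadjusted p below 0.05, against 17.5% of all genes. Without Hist1h2al it was 64 of 66. With reads shared between copies, these genes are not separate measurements. The lowest adjusted p was 0.0685, for Hist1h1a. The background was low, with 2.04% of all genes past an adjusted p of 0.05. Differences ran from 0.14 for Hist2h4 to 0.63 for Hist1h2an. Hist1h2ae had 2282 ± 537 CPM in BCAA-free vehicle mice and 1529 ± 423 CPM in AA vehicle mice, a log2 difference of 0.58 ± 0.19 (SE, adjusted p = 0.114). The groups overlapped for every histone gene, while 4.82% of all genes had groups without overlap.

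This count moved with the method and with AA vehicle mice as well. For these refits too the share of all genes past the threshold was not taken. With all mice, 39 genes passed without a filter on low counts, DESeq2 passed 23 and limma-voom none. Without AA vehicle replicates 1 and 2, 55 genes passed and the median was 0.78. Without AA vehicle replicate 2 alone 9 passed, 8 of them for H2B and 1 for H1, and without replicate 3 none passed and the median was 0.40. Red cell markers summed to 112 to 215 CPM in BCAA-free vehicle footprints and to 32.4 to 146 CPM in AA vehicle footprints. The 5 B cell markers summed to 14.3 to 22.1 CPM in BCAA-free vehicle and 8.92 to 12.1 CPM in AA vehicle footprints, with no overlap. The 7 T and NK cell markers summed to 6.61 to 10.6 CPM in BCAA-free vehicle and 3.55 to 6.05 CPM in AA vehicle footprints, also with no overlap. The part of these cells in the result was not tested.

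Between the diets under 5+3, histone footprints were level. The median log2 difference was 0.017, against 0.0049 for all genes, and 46 of 67 genes lay above 0. Over the alternatives the median ran from -0.055 to 0.15. None passed with edgeR, against 28.3% of all genes, and 1 had an unadjusted p below 0.05, against 39.4% of all genes. The groups overlapped for every histone gene, while 17.5% of all genes had groups without overlap. The gene below 0.05 was Hist4h4, the only member outside the 3 larger clusters, which was named after its values were seen. It had 173 to 265 CPM in the 7 BCAA-free 5+3 mice (median 200.5), against 164, 176, 151 and 116 CPM in the 4 AA 5+3 mice. The log2 difference was 0.42 ± 0.17 (SE, adjusted p = 0.0710). The 2 groups overlapped by a single pair of mice, at 173 and 176 CPM, and the gene passed with DESeq2 (adjusted p = 0.0453) but not with limma-voom. All 5 tested red cell genes and 3 of 8 neutrophil genes were lower on the BCAA-free diet in these footprints. The 7 genes of the MLL-AF9 list summed to 3843 to 4825 CPM in BCAA-free 5+3 footprints and to 5543 to 7322 CPM in AA 5+3 footprints, with no overlap, and 1 of the 7 was higher and 3 were lower. The part of these markers in the histone values was not tested.

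The interaction asks whether 5+3 changed footprints differently on the BCAA-free and on the AA diet. All 67 log2 values lay below 0, with a median of -0.49, against -0.019 for all genes. None passed with edgeR, against 7.09% of all genes, although 31 had an unadjusted p below 0.05, against 23.6% of all genes, and DESeq2 and limma-voom passed none. Because copies share reads, those 31 are not separate measurements. The lowest adjusted p was 0.143, for Hist1h2ae at -0.65 ± 0.27 (SE). Without AA vehicle replicates 1 and 2, 30 genes passed, all lower, with a median of -0.72, and the share of all genes there was not taken. The comparisons after 5+3 on the AA diet, between diets under vehicle and of the interaction share the AA vehicle mice, so their values are not independent of each other. Leaving out Hist1h2al left the count past the threshold at 0 in all 5 footprint comparisons.

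**Figure D3:**
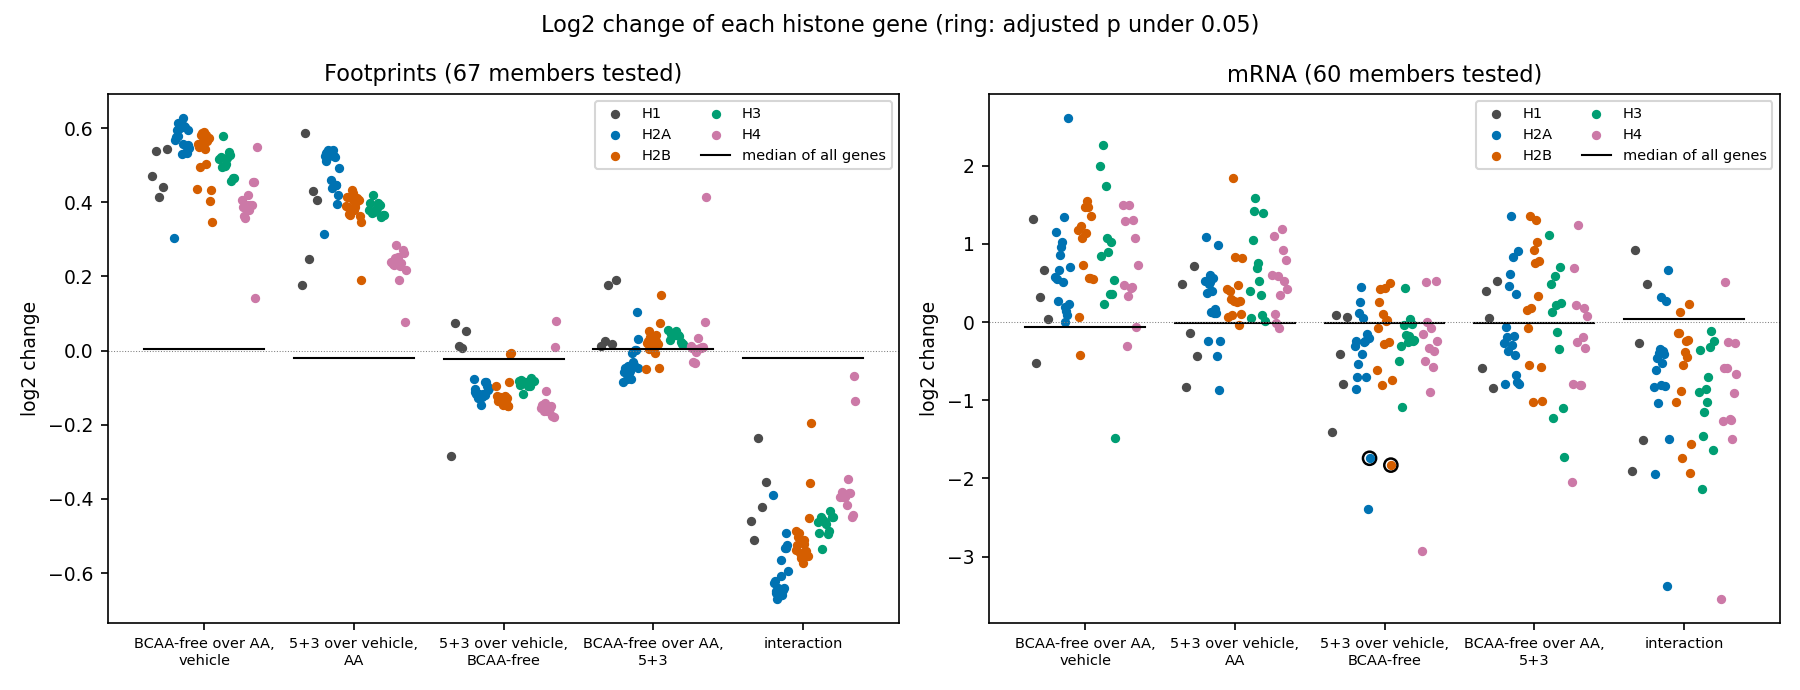
Log2 change of each histone gene in the 5 comparisons, in footprints (left, 67 genes) and in mRNA (right, 60 genes), coloured by class, with the median of all genes tested as a black line and a ring around genes with an adjusted p under 0.05. Footprint values of a class form tight bands, while mRNA values spread over several log2 units, and the rings mark Hist3h2a and Hist2h2bb in mRNA after 5+3 on the BCAA-free diet.

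In mRNA, 2 histone genes fell after 5+3 on the BCAA-free diet. They were Hist3h2a and Hist2h2bb, 2 of 60 tested, against 4.23% of all 21114 genes lower and 8.56% in either direction, and 5 of 60 had an unadjusted p below 0.05, against 27.1% of all genes. These 2 of 60 lie near the share of all genes lower, so the count is not particular to histone genes. The median log2 change of the 60 was -0.24, against -0.0061 for all genes, and it was 0.12 without BCAA-free vehicle replicate 3. DESeq2 passed 4 genes, adding Hist1h4i and Hist2h2ab, and limma-voom passed Hist3h2a and Hist1h4i. Hist3h2a encodes an H2A and lies in the small Hist3 cluster; its promoter, shown above, holds the octamer and 2 CCAAT motifs.

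Hist3h2a mRNA was at 5.10 to 10.8 CPM in the 7 BCAA-free 5+3 mice (median 8.23), against 24.9, 11.2, 14.7, 20.4 and 61.4 CPM in the 5 BCAA-free vehicle mice. Each of the 7 treated mice lay below each of the 5 vehicle mice. This held for 1 of the 60 histone genes and for 1.22% of all genes, which are close shares. The log2 change was -1.74 ± 0.32 (SE, edgeR, adjusted p = 0.0054). On the AA diet it had 13.2, 14.9, 8.09 and 18.6 CPM after 5+3, against 15.0, 16.9, 14.1, 16.0 and 19.2 CPM under vehicle, a log2 change of -0.25 ± 0.37 (SE, adjusted p = 0.9995). The difference between the diets in this change was -1.49 ± 0.49 (SE) and did not pass (adjusted p = 0.266).

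Hist3h2a footprints did not pass over the same mice. They were at 522 to 869 CPM in BCAA-free 5+3 mice (median 701) and at 945, 611, 560.2, 811 and 727 CPM in BCAA-free vehicle mice, a log2 change of -0.10 ± 0.17 (SE, adjusted p = 0.709). The change of footprints over mRNA was tested with the mouse as a block. There 1 of 60 histone genes passed, against 2.7% of 12097 genes higher and 10.3% in either direction. This count is not above those shares. The gene was Hist3h2a, at 1.39 ± 0.34 (SE, edgeR, adjusted p = 0.0256). Because mRNA of this gene is counted only as far as it is primed, this value does not say that ribosomes per mRNA rose.

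Hist2h2bb, which encodes an H2B and whose promoter shows the octamer and 1 CCAAT in the bases above, was lower in mRNA with more spread. It had 0.579 to 3.12 CPM in the 7 BCAA-free 5+3 mice (median 1.55), against 3.97, 2.23, 14.5, 1.72 and 6.96 CPM in the BCAA-free vehicle mice, so the groups overlapped. The log2 change was -1.83 ± 0.53 (SE, edgeR, adjusted p = 0.0372). Its footprints were 706 ± 114 CPM in BCAA-free 5+3 mice and 749.9 ± 173 CPM in BCAA-free vehicle mice, a log2 change of -0.086 ± 0.14 (SE, adjusted p = 0.694).

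Both mRNA calls rested on some libraries more than others. Without the 4 libraries that stand apart, BCAA-free vehicle replicates 1, 2 and 5 and BCAA-free 5+3 replicate 7, Hist3h2a was at -1.12 (adjusted p = 0.190), Hist2h2bb at -2.07 (0.216), and no histone gene passed. That refit, used below as well, keeps only replicates 3 and 4 of the BCAA-free vehicle mice, so it also has fewer mice to test with. Hist2h2bb lost its call there although its change was larger than with all mice (-1.83). Hist3h2a kept its call without each mouse in turn (adjusted p 0.0036 to 0.0176), with the smallest change of -1.17 without BCAA-free vehicle replicate 5. Hist2h2bb lost it without any of 6 mice, among them BCAA-free vehicle replicate 3, its highest, where the change was -1.21 (adjusted p = 0.141). The footprint over mRNA call of Hist3h2a was lost without any of 5 mice (adjusted p 0.052 to 0.0593).

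Markers of other cells moved with these mRNA values. The 8 red cell genes summed to 1.03 to 7.84 CPM in BCAA-free 5+3 mRNA, against 69.3 to 134 CPM in BCAA-free vehicle mRNA, and 6 of the 7 tested were lower. The 8 neutrophil genes summed to 106 to 1107 CPM, against 1274 to 1885 CPM, and 7 of the 8 were lower. None of the genes of either list was at 0 in all mice of a group, and their part in the Hist3h2a and Hist2h2bb values was not tested.

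**Figure D4:**
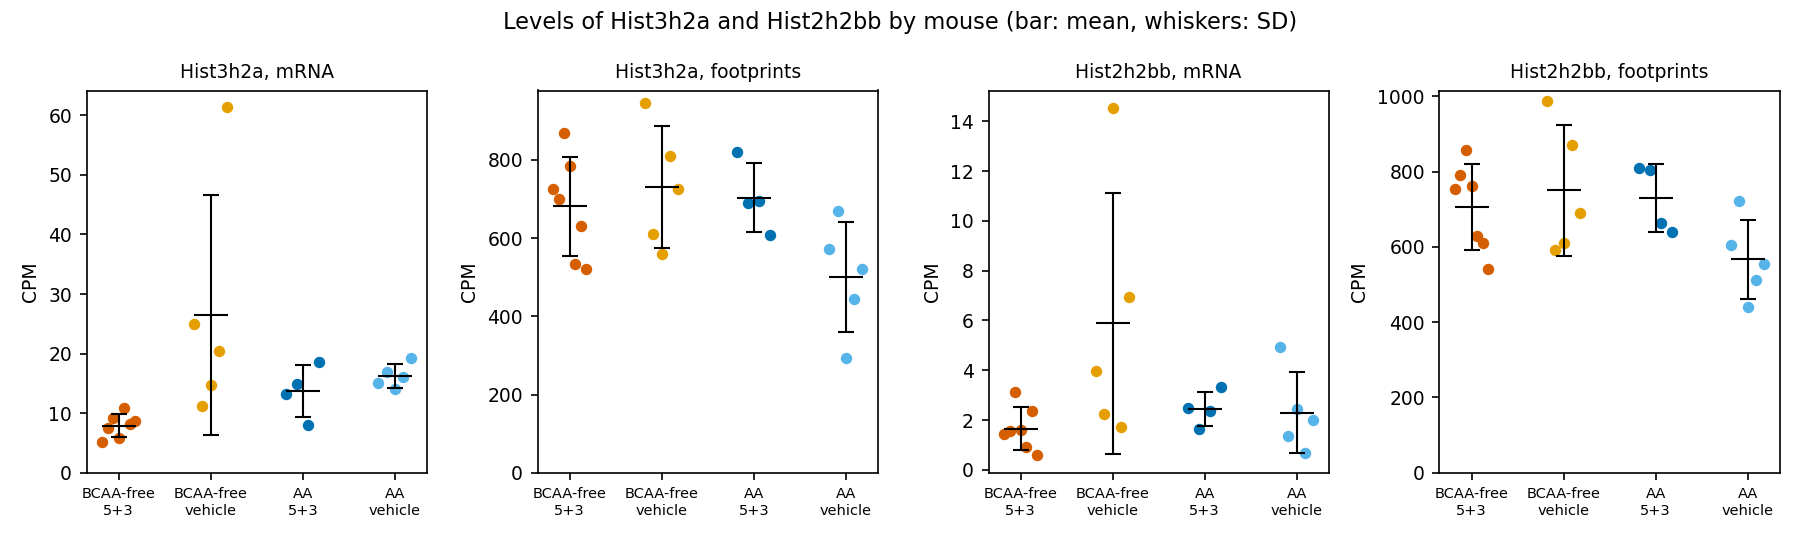
CPM of Hist3h2a and Hist2h2bb in mRNA and footprints, 1 point per mouse, with the group mean as a bar and the SD as whiskers, for BCAA-free 5+3 (7 mice), BCAA-free vehicle (5), AA 5+3 (4) and AA vehicle (5). In Hist3h2a mRNA the 7 BCAA-free 5+3 mice (5.10 to 10.8 CPM) lie below the 5 BCAA-free vehicle mice (11.2 to 61.4 CPM), while the footprint ranges overlap.

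In the other mRNA comparisons no histone gene passed with edgeR. After 5+3 on the AA diet the median log2 change of the 60 genes was 0.40 and 50 lay above 0, with 0.0616% of all genes past the threshold and none of the 60 at an unadjusted p below 0.05, against 5.89% of all genes. Hist1h3e, for H3, was the 1 gene whose AA 5+3 mice (0.715, 0.507, 0.759 and 1.38 CPM) all lay above the AA vehicle mice (0.475, 0.270, 0, 0.393 and 0.252 CPM), at a log2 change of 1.59 ± 0.88 (SE, adjusted p = 0.950). Such a gap upward was found in 1.92% of all genes, and one of the AA vehicle mice was at 0.

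Between the diets under vehicle the median mRNA difference was 0.69, against -0.057 for all genes, and 54 of 60 genes lay above 0. Of the 60, 10 had an unadjusted p below 0.05, against 11.2% of all genes with such a p and 0% past the threshold. Limma-voom passed none of the histone genes and DESeq2 passed 2, Hist1h3a and Hist1h2bj. Hist1h3a, for H3, had 2.68, 2.02, 2.21, 2.30 and 1.55 CPM in BCAA-free vehicle mice, all above the 0.724, 0.523, 0.357, 0.452 and 0.629 CPM of AA vehicle mice. The log2 difference was 2.00 ± 0.55 (SE, edgeR, adjusted p = 0.285), and Hist1h3a was the 1 of 60 histone genes with such a gap upward, against 0.871% of all genes. Red cell markers in mRNA summed to 69.3 to 134 CPM in BCAA-free vehicle mice and to 11.5 to 30.9 CPM in AA vehicle mice, with no overlap, and their part in these values was not tested. Under 5+3 the median difference between diets was -0.0044 with 6 of 60 at an unadjusted p below 0.05, against 13% of all genes at such a p and 1.24% past the threshold. In the interaction the median was -0.60, 7 of 60 had an unadjusted p below 0.05, against 12.1% of all genes, and 0.0758% of all genes passed. DESeq2 and limma-voom passed no histone gene in the comparison under 5+3 or in the interaction.

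Footprints over mRNA gave no histone call in the other 4 comparisons. None of the 60 genes passed with edgeR after 5+3 on the AA diet or between diets under vehicle, where 0% of all genes passed, between diets under 5+3, where 0.0165% passed, or in the interaction, where 0.00827% passed. At an unadjusted p below 0.05 there was 1 of 60 genes after 5+3 on the AA diet, against 2.6% of all genes, and 4 between diets under vehicle, against 9.15%. Under 5+3 there were 5 between diets, against 8.32%, and the interaction had 1, against 13.3%. Limma-voom passed none in these comparisons. After 5+3 on the BCAA-free diet the median of the 60 genes was 0.024, against -0.24 for all genes, and 6 had an unadjusted p below 0.05, against 32.4% of all genes.

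Several genes that process and carry histones changed in footprints, in the same mice, as did many of all genes tested. Slbp encodes the stem-loop binding protein. It had 72.4 ± 6.02 CPM in BCAA-free 5+3 footprints (n = 7) and 94.2 ± 7.27 CPM in AA 5+3 footprints (n = 4), a fall of 0.38 ± 0.090 on the log2 scale (SE, adjusted p = 0.0027), and it did not pass in the other 4 comparisons. Npat, the co-activator of histone gene transcription, passed in none, with 25.2 ± 1.49 CPM in BCAA-free 5+3 mice and 25.3 ± 4.03 CPM in AA 5+3 mice.

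Of 26 tested genes for histone mRNA transcription, processing and decay, 1 was higher and 7 were lower on the BCAA-free than on the AA diet under 5+3, with a list median of -0.17. These 8 of 26 lie near the share of all genes past the threshold, 28.3%, so the count is not particular to this list. Srrt and Ncbp1, which act at the mRNA cap, fell by 0.63 and 0.51 on the log2 scale, Sympk, a scaffold of the cleavage complex, fell by 0.52, and Cdk2, the kinase that activates NPAT, fell by 0.49. After 5+3, 2 rose on the AA diet (Ccne1 by 0.84 and Ncbp1 by 0.45), against 6.61% of all genes. On the BCAA-free diet 2 rose and 3 fell, near the share of all genes, 20.6%. Cdk2 fell there by 0.44, a call lost under 1 of 10 other settings (adjusted p up to 0.169). Between diets under vehicle 1 of 26 fell, Ccne2, against 2.04% of all genes, and it lost its call without any of 5 of the 10 mice. In mRNA after 5+3 on the BCAA-free diet, Cstf2 and Eri1 rose by 1.14 and 1.07 and Cstf3 fell by 0.56, against 8.56% of all genes in either direction.

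Histone chaperones, which escort histones to DNA, showed 3 of 24 higher after 5+3 on the AA diet and 6 higher with 1 lower on the BCAA-free diet, against 6.61% and 20.6% of all genes in either direction. On the AA diet Asf1b, a carrier of H3 and H4, rose by 0.59 ± 0.13 (adjusted p = 0.0070) and Hat1, which acetylates new H4, rose by 0.52 ± 0.10 (SE, adjusted p = 0.0027). On the BCAA-free diet Nasp, another H3 and H4 carrier, rose by 0.50 and Ubn1, of the HIRA complex, fell by 0.83. Between diets under 5+3, 2 of 24 rose and 6 fell, with Asf1b at -0.61 and Hat1 at -0.48, against 28.3% of all genes. The interaction gave 1 higher and 3 lower, against 7.09% of all genes, and none passed between diets under vehicle. Of the interaction calls, Asf1b, Cdan1 and Nap1l1 lost theirs without any of 13, 10 and 7 of the 21 mice. Ubn1 kept its interaction call without each mouse and lost it under 2 of 9 other settings. In mRNA after 5+3 on the BCAA-free diet, the 4 chaperones with the smallest adjusted p rose, against 8.56% of all genes in either direction. They were Chaf1b (1.57), Rbbp4 (1.05), Rbbp7 (1.18) and Asf1b (1.70). Asf1b lost this mRNA call without any of 6 of the 12 mice and under 3 of 10 other settings.

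Of 25 S-phase genes, 8 rose after 5+3 in footprints on the AA diet and 12 on the BCAA-free diet, none fell, and the others did not pass. Of all genes, 6.61% and 20.6% passed in either direction on those diets. Rrm2, the small subunit of ribonucleotide reductase, rose by 0.79 ± 0.12 on the AA diet and by 0.89 ± 0.11 on the BCAA-free diet (SE, adjusted p = 3.5e-04 and 2.1e-05). Tyms, thymidylate synthase, rose by 0.78 on the AA diet. Between diets under 5+3, 2 were higher and 10 lower on the BCAA-free diet, against 28.3% of all genes, and under vehicle none passed. In mRNA 6 of 25 rose after 5+3 on the BCAA-free diet, against 8.56% of all genes in either direction, and none passed in the other comparisons. Fen1, Rrm2 and Rfc4 kept this call without each mouse and lost it under 1 of 10 other settings (adjusted p up to 0.235). Mcm6 lost it without any of 8 of the 12 mice and under 2 of 10 other settings (up to 0.260). Of 5 proliferation genes 4 rose after 5+3 on the AA diet and 2 on the BCAA-free diet; Mki67 passed on neither in footprints and fell by 0.75 in mRNA on the BCAA-free diet (adjusted p = 0.0333). Mki67 lost this mRNA call without any of 6 of the 12 mice (adjusted p up to 0.0951) and under 2 of 10 other settings (up to 0.393).

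Replication-independent histones changed in a few of the 11 listed genes. In footprints these were H1f0, H1fx and H2afy2 between diets under 5+3, where 28.3% of all genes passed. After 5+3 they were H1f0 on the AA diet (6.61% of all genes) and H3f3a, H2afv and H2afz on the BCAA-free diet (20.6%). H1f0 passed in the interaction (7.09%) and Cenpa between diets under vehicle (2.04%). Between diets under 5+3 and on the BCAA-free diet, the calls lie near those shares and are not particular to this list. H1f0, the linker histone H1.0 of slowly dividing and differentiated cells, fell by 1.12 ± 0.24 after 5+3 on the AA diet (SE, adjusted p = 0.0067), and it was higher by 1.43 ± 0.22 on the BCAA-free than on the AA diet under 5+3 (SE, adjusted p = 7.9e-05). Its interaction was 1.40 ± 0.30 (SE, adjusted p = 0.0088), which was not past the threshold with the replicate block (0.0508) or without the 4 libraries apart (0.0942). H1f0 footprints did not pass after 5+3 on the BCAA-free diet, at 0.29 (adjusted p = 0.285), while its mRNA rose by 1.39 ± 0.32 (SE, adjusted p = 0.0144, or 0.233 without the 4 libraries apart). Footprints over mRNA of H1f0 fell there by 1.10 ± 0.29 (SE, adjusted p = 0.0278), a call lost without any of 6 of the 12 mice (adjusted p up to 0.0748) and without the 4 libraries apart (0.299). Between diets under 5+3 its mRNA was higher by 1.71 ± 0.35 (SE, adjusted p = 0.0130), a call lost without either of 2 AA 5+3 mice (0.0594 and 0.0700) and with the replicate block (0.0522). H1fx and H2afy2 were also higher on the BCAA-free diet under 5+3, by 2.62 and 1.78. Both had low footprint levels, with means of 1.51 and 1.49 CPM over all mice. After 5+3 on the BCAA-free diet H2afz rose by 0.22, while H3f3a and H2afv fell by 0.43 and 0.36. The calls of H2afz and H2afv (adjusted p = 0.0481 and 0.0411) were lost without any of 5 and 8 of the 12 mice, and under 4 and 5 of 10 other settings. H3f3a (adjusted p = 0.0074) kept its call without each mouse and lost it in 1 setting, without the 4 libraries apart (0.173). Cenpa, the centromeric H3, was higher by 0.48 on the BCAA-free diet under vehicle (adjusted p = 0.0395). Cenpa lost this call without any of 9 of the 10 mice (adjusted p up to 0.107) and under 4 of 10 other settings (up to 0.316).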

How the data were processed

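Groups were taken from the labels. The authors deposited whole-number counts per gene and library, not normalized; cutadapt, Bowtie2, STAR, SAMtools, featureCounts and the build GRCm38 (mm10) are named per the submitters' processing notes, and their versions, the strand setting and the handling of reads that fit several places were not stated. Gene names came from a name table (55141 of 55487 identifiers), and 67 of the 68 histone genes matched 1 RefSeq gene. Of 70 rows fitting the naming rule, Hist1h2aj and Hist3h2bb-ps, which are pseudogenes, were left out; Hist1h2al, a transcribed pseudogene in RefSeq, was kept by its name. Members and lists were chosen with earlier results of these data known. The rule for named genes took the 3 histone genes of each class highest in footprints and the 2 highest in mRNA, up to 8 histone genes past the threshold per comparison, Slbp, Npat and Mki67, and up to 4 genes past the threshold per other list and comparison; other named histone genes were chosen after their values were seen.

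Counts were fitted with edgeR 4.0.16 (R 4.3.3; TMM, low counts removed by filterByExpr at 10 per library and 15 in total, robust quasi-likelihood test, 4 groups in 1 fit, Benjamini-Hochberg over all genes, threshold 0.05). The filter kept 67 histone genes in footprints and 60 in mRNA; Hist1h1t was kept in neither. Footprints over mRNA were a test of group differences between the kinds of library, blocked by the mouse that the labels name; of 21 mice, 13 had an mRNA library that deviated from its group most like its own footprints (median r = 0.109). CPM use TMM-scaled library sizes. Spread is given over mice, each with its own libraries. Alternatives used limma 3.58.1 and DESeq2 1.42.0, no filter, other scaling, left-out libraries and mice, and a replicate block; scaling by genes other than the histones and leaving out Hist1h2al were added after seeing the data. The fits were tested on simulated data.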

Additional observations from a re-analysis of the deposited data

Results flagged for a closer look

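In a group of 4 to 10 mice, a value was taken as apart when its gap to the nearest mouse was large for the group's range (Dixon's test at 95%). This held in 4 of 72 groups of values, and chance gives about 1 in 20. AA vehicle replicate 1 was far above its group in mRNA for the H1 sum (245.2 CPM), the H4 sum (65.0 CPM) and Hist1h1b (188.0 CPM). BCAA-free vehicle replicate 5 was far above its group in mRNA for Hist3h2a (61.4 CPM).

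Outside the genes tested, the pseudogene rows drew footprint counts as well. Hist1h2aj had a mean of 9518 footprint counts per library, against 25.5 mRNA counts, and Hist3h2bb-ps had 2190.5 footprint counts, against 1.86 mRNA counts.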

How the results depend on the processing

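Counts of histone genes past the threshold moved by more than 1.5 times as follows, and the cause was not tested. The share of all genes past the threshold was not taken in these refits. In footprints after 5+3 on the AA diet (0 genes), 17 passed without a filter on low counts, 1 with DESeq2 and 46 without the 2 shallowest libraries, and 0 to 2 passed without single mice of the compared groups. Between diets under vehicle (0), 39 passed without a filter, 23 with DESeq2, 55 without the 2 shallowest libraries and 2 among protein-coding genes alone, and 0 to 9 without single mice. Between diets under 5+3 (0), 1 gene, Hist4h4, passed without a filter, with DESeq2, with the compared groups alone, without the 2 shallowest libraries and among protein-coding genes alone. In the interaction (0), 10 passed without a filter and 30 without the 2 shallowest libraries. After 5+3 on the BCAA-free diet 0 to 1 passed without single mice. In mRNA after 5+3 on the BCAA-free diet (2), 1 passed without a filter, 4 with DESeq2, 1 with the compared groups alone, 0 without the 4 libraries apart and 1 to 3 without single mice. Between diets under vehicle in mRNA (0), DESeq2 passed 2. For footprints over mRNA after 5+3 on the BCAA-free diet (1), limma-voom passed 2, a replicate block 5, the fit without the 4 libraries apart 0, and those without single mice 0 to 3. No named gene past the threshold changed sign. No difference in class sums moved by more than 1 SD under other CPM scalings, the only alternatives tried for the sums. Class medians of the log2 change moved by their median SE or more in 19 cases over the other settings and in 2 without single mice. Medians near 0 did change sign: in footprints after 5+3 on the BCAA-free diet the median ran from -0.19 to 0.053, and in mRNA from -0.59 to 0.12. Mice of different groups with the same replicate number had a median r of -0.011 in footprints and 0.041 in mRNA. Their r was above 0.1 in 4 of 27 pairs in footprints and in 12 of 27 in mRNA, where it reached 0.55. Pairs with different numbers were not set beside them, so pairing by number was not tested. With the replicate block Hist2h2bb lost its mRNA call (adjusted p = 0.0851). Footprints per kilobase were not run, as coding lengths were not at hand. Shared reads limit what single copies show in footprints, and mRNA counts of 1 to 100 per library limit most copies there.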
